A study of Xenopus laevis with 9 samples.

Results

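The genes described here mark the neural plate and the first neurons of the frog embryo: sox2, sox3, ncam1, tubb2b, elavl3, myt1, neurog2, neurod1, neurod4 and msi1. Every probe set whose gene symbol in the array annotation is one of these 10, once the suffix for the gene copy is removed, was taken. This gave 17 probe sets out of 15491. They stand for 14 gene copies, out of 7531 different symbols on the array, because Xenopus laevis carries a long (.L) and a short (.S) subgenome. One of the ncam1 probe sets matches both copies. The tissue was cranial neural crest, dissected from Xenopus laevis embryos at stages 15 to 17 and extracted at once, and RNA was measured on 9 Affymetrix Xenopus arrays.

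The 3 groups had 3 arrays each. MO13_C13 embryos received 10 ng of a morpholino against ADAM13, a cell surface metalloprotease of the neural crest, and, with it, an mRNA for GFP-C13, in which GFP is joined to ADAM13's cytoplasmic part. MO13 embryos received 10 ng of the ADAM13 morpholino alone. CMO embryos received 10 ng of a control morpholino. Injection was at the one-cell stage, and embryos were kept at 15 °C. The mRNA dose is 300 pg in the sample labels and 0.5 ng in the series text. Each group has 1 array from each of 3 independent experiments, so the arrays of an experiment form a set of 3.

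In the frog neurula the neural crest forms at the border of the neural plate, so neural plate lies against the tissue that is cut out. The SoxB1 factors Sox2 and Sox3 and the RNA-binding protein Musashi-1 (msi1) mark dividing neural progenitors, and the adhesion molecule NCAM (ncam1) covers the whole neural plate. Proneural bHLH factors (neurog2, then neurod1 and neurod4) and the zinc finger protein Myt1 commit cells to the neuronal fate, after which neurons make the tubulin Tubb2b and the RNA-binding protein Elavl3.

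The explants carried neural crest markers at high signal. The mean over 14 neural crest probe sets was 7.35 to 7.52 on the log2 scale in MO13_C13 arrays, 7.4 to 7.72 in MO13 arrays and 7.57 to 7.71 in CMO arrays, where the median of all probe sets was 4.88 to 5.07. Of those 14, at most 3 fell below an array's lower quartile (1.78 to 1.89 over the arrays), and 0 were called in any comparison. The 12 mesoderm and muscle probe sets averaged 1.44 to 1.60 in MO13_C13, 1.43 to 1.64 in MO13 and 1.43 to 1.61 in CMO, with 9 or 10 of 12 below the lower quartile. The 18 epidermal probe sets averaged 5.75 to 6.11 in MO13_C13, 5.54 to 5.67 in MO13 and 5.13 to 6.16 in CMO. In MO13_C13 against MO13, 6 of the 18 epidermal probe sets were higher and 0 lower at an unadjusted limma p under 0.05. Of all probe sets 3.89% were higher and 2.83% lower at that threshold, and no epidermal one was called there. Of the 8 placode, 4 notochord and 5 cement gland probe sets 0 were called. The 4 notochord probe sets stand for only 2 genes once the copy suffix is removed, and the 5 cement gland ones also for 2. Notochord means were 1.37 to 2.30 over the arrays, with 2 or 3 of 4 below the lower quartile. Cement gland means were 1.93 to 3.39, with 1 to 3 of 5 below it. The differences from CMO had a median of -0.18 in MO13_C13 and -0.13 in MO13 for neural crest, with 3 values above and 11 below 0 in both. For placode the medians were -0.09 and -0.12, with 2 above and 6 below 0 in MO13_C13 and 0 above and 8 below 0 in MO13. For notochord they were -0.42 and -0.39, with 1 above and 3 below 0 in both, and for cement gland 0.87 and 0.36, with 5 of 5 above 0 in MO13_C13 and 4 of 5 in MO13. For epidermis they were 0.18 and -0.09, with 14 above and 4 below 0 in MO13_C13 and 6 above and 11 below in MO13. At an unadjusted limma p under 0.05, 3 of 5 cement gland probe sets were higher in MO13_C13 than in CMO (7.83% of all) and 0 lower. For notochord 0 were higher and 2 of 4 lower (8.24% of all). For neural crest there, 0 were higher and 2 of 14 lower, and for placode 0 and 0 of 8. In MO13 against CMO, placode gave 0 higher and 2 of 8 lower, and neural crest 1 and 1 of 14 (7.56% and 8.88% of all). In MO13_C13 against MO13, cement gland gave 2 of 5 higher and 0 lower, placode 1 and 0 of 8, and neural crest 0 and 1 of 14. For adam33.L, the gene that encodes ADAM13, the 3 MO13_C13 arrays gave 10.00, 9.98 and 10.23, the MO13 arrays 4.42, 3.78 and 4.81 and the CMO arrays 3.07, 4.5 and 3.34. It was higher in MO13_C13 than in MO13 by 5.73 (limma adjusted p = 0.0146; 9.2e-05 to 0.835 over the alternatives). This call was lost without any one MO13_C13 array, without the MO13 or the CMO array of experiment 1, and without experiment 1 or 3. Between MO13 and CMO the difference was 0.70 (limma adjusted p = 0.433). The labels do not say if the ADAM13 morpholino acts on translation or on splicing, so this value does not check the knockdown. The mRNA injected in MO13_C13 encodes ADAM13's cytoplasmic part. Whether the adam33.L probe set read that mRNA or the embryo's own transcript was not tested. The adam33.S probe set read 1.33 to 1.71 over the 9 arrays, and its MO13_C13 minus MO13 difference was 0.12 (limma adjusted p = 0.8).

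The neural genes were present at very different positions in the range of signals. Differences in signal between probe sets cannot be read as differences in RNA amount. Each probe set is therefore only placed by its signal against the quartiles of all probe sets on the same array. The probe sets of sox3.S, ncam1.S, tubb2b.S, msi1.L and msi1.S were above the upper quartile on all 9 arrays. Together with both sox2.L probe sets, ncam1.L and the ncam1 probe set of both copies, 9 of 17 were above the median on all 9 arrays. At the other end, neurog2.L, neurod4.L and 1 of the neurog2.S probe sets (suffix S1_at) were below the lower quartile on all 9 arrays. Thus sox2.L, sox3.S, ncam1, msi1 and the neuronal tubulin gave signals in the upper part of the range, sox3.L lay near the lower quartile, and 3 of the 5 proneural probe sets lay at the bottom. Fewer neural cells in an explant and less of the RNA per cell cannot be told apart in these bulk samples.

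**Figure D1:**
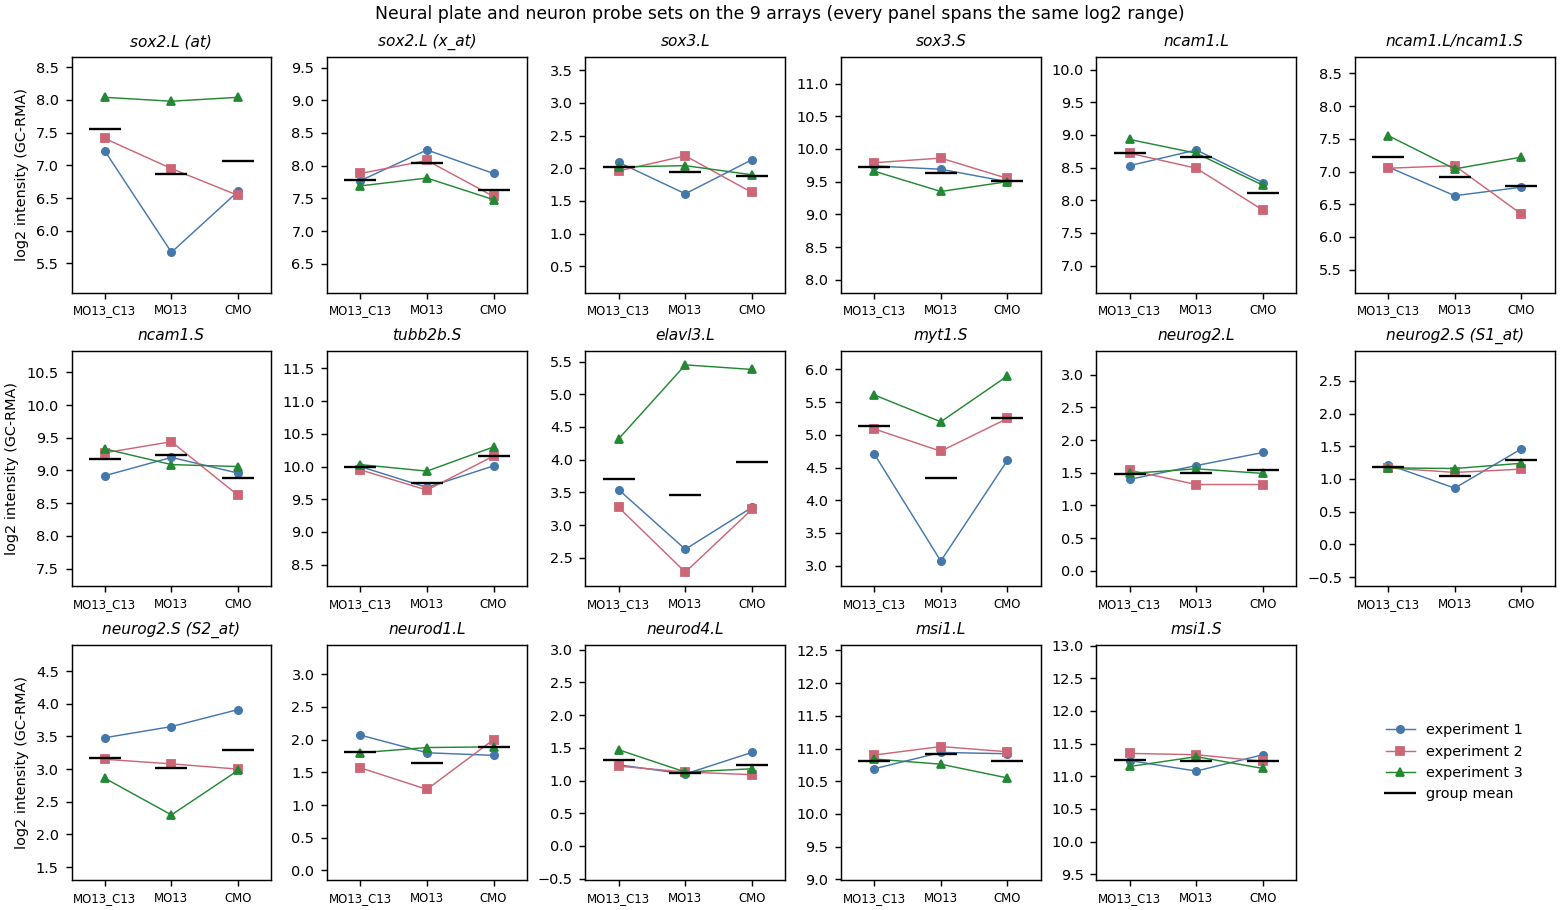
Log2 signal of each of the 17 probe sets on every array, with MO13_C13, MO13 and CMO from left to right, points marked by experiment and a line at the group mean. Every panel spans the same log2 range at its own height. The ncam1.L points of CMO (7.85 to 8.27) all lie under those of MO13_C13 (8.53 to 8.93) and MO13 (8.49 to 8.77), and the elavl3.L points split by experiment.

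None of the 17 probe sets was called in any of the 3 comparisons. A call here is a Benjamini-Hochberg adjusted p under 0.05 over all 15491 probe sets in limma, with group and experiment as terms. For MO13 against CMO, 0 of 17 were called against 1.16% of all probe sets. For MO13_C13 against MO13 the counts were 0 of 17 and 0.00646%, and for MO13_C13 against CMO 0 of 17 and 1.76%. Without the experiment term limma also called 0 of 17, and the background was 0.0968%, 0.00646% and 0.142% in the same order. At an unadjusted p under 0.05 limma gave 4 of 17 for MO13 against CMO (16.4% of all), 3 of 17 for MO13_C13 against MO13 (6.71% of all) and 2 of 17 for MO13_C13 against CMO (16.1% of all). Without the experiment term these were 3, 0 and 1 of 17, against 6.87%, 1.36% and 7.15%. Groups without overlap were 2 higher and 1 lower of 17 for MO13 against CMO (4.85% and 5.06% of all), 3 higher and 0 lower for MO13_C13 against MO13 (1.96% and 2.55% of all), and 2 higher and 0 lower for MO13_C13 against CMO (6.13% and 6.42% of all). A difference with one sign in all 3 experiments was found in 7, 6 and 4 of 17 in the same order, against 36.4%, 25.7% and 38.9% of all probe sets.

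The differences of the 17 probe sets lay on both sides of 0 in every comparison. For MO13 against CMO their median was -0.04, with 8 above and 9 below 0, where the median of all probe sets was -0.01. The sign of this median turned with dim probe sets left out (0.12), with arrays centred (0.02) and with some leave-outs (-0.16 to 0.09), so it gives no direction. For MO13_C13 against MO13 it was 0.15, with 13 above and 4 below 0, where all probe sets had a median of 0.00. With dim probe sets left out this median was 0.07. For MO13_C13 against CMO the median was 0.02, with 10 above and 7 below 0, and that of all probe sets was 0.00. With dim probe sets left out this median was 0.21. MO13 arrays enter the first comparison with one sign and the second with the other, and CMO arrays serve the first and the third, so the comparisons are not independent of each other.

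**Figure D2:**
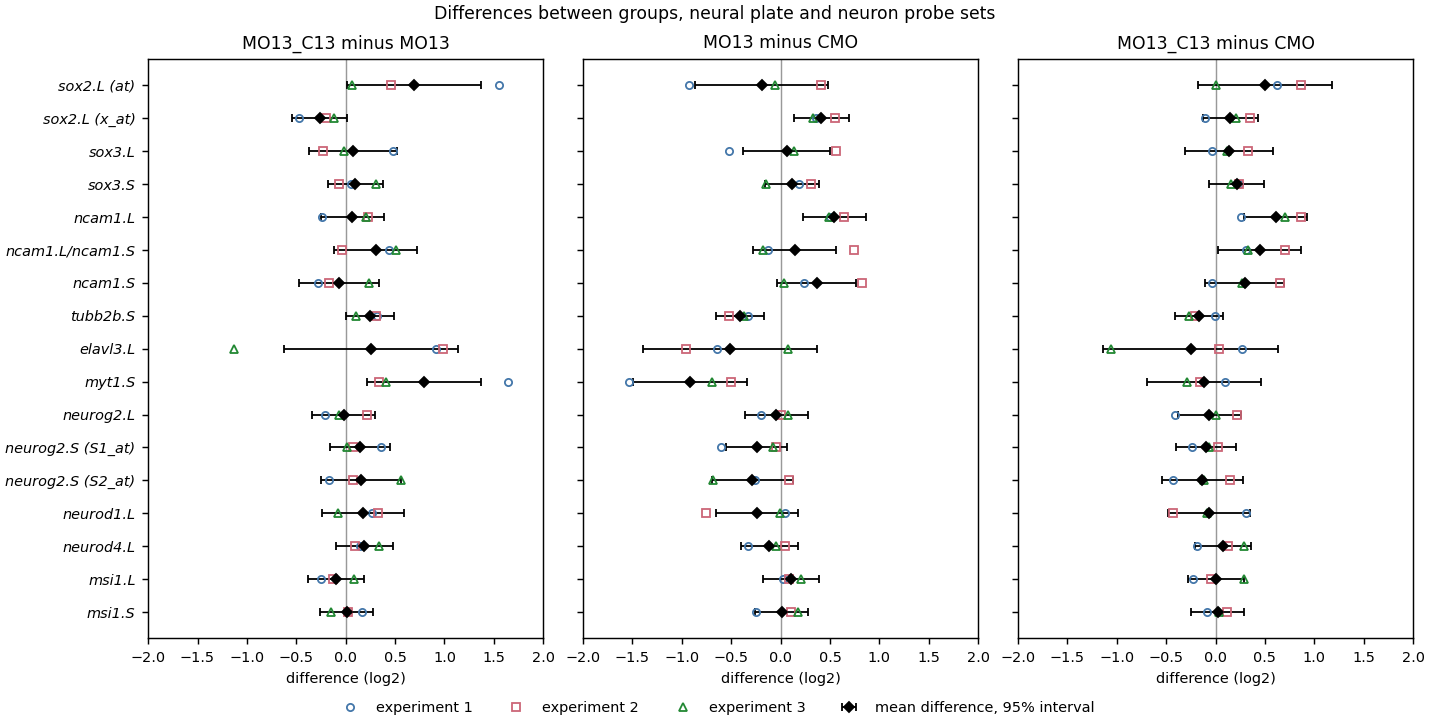
Differences in log2 signal for the 17 probe sets in each of the 3 comparisons, with open symbols for the single experiments and a diamond with a bar for the mean and its 95% interval. The intervals are not adjusted for the number of probe sets, so one without 0 is the same as an unadjusted limma p under 0.05. This holds for 4 of 17 in MO13 against CMO (16.4% of all probe sets) and 3 in MO13_C13 against MO13 (6.71%). In MO13_C13 against CMO it holds for 2 (16.1%). The interval of ncam1.L lies above 0 in both comparisons with CMO, and that of tubb2b.S lies below 0 for MO13 against CMO (-0.65 to -0.16).

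The neural adhesion molecule ncam1 gave the lowest adjusted p of the set. For ncam1.L the log2 signal in experiments 1, 2 and 3 was 8.53, 8.72 and 8.93 in MO13_C13, 8.77, 8.49 and 8.72 in MO13 and 8.27, 7.85 and 8.23 in CMO. All 3 arrays of both ADAM13 morpholino groups were above all 3 CMO arrays. The difference between MO13_C13 and CMO was 0.61, a 1.53-fold higher signal (95% interval 0.29 to 0.93; limma adjusted p = 0.0808, and 0.32 without the experiment term). The difference between MO13 and CMO was 0.54, or 1.46-fold (0.22 to 0.86; limma adjusted p = 0.111, and 0.447 without the experiment term), with 0.50, 0.64 and 0.49 in the single experiments. Neither passed the threshold, and the lowest adjusted p among all alternatives was 0.054 for MO13_C13 against CMO. MO13_C13 and MO13 overlapped and differed by 0.07 (-0.25 to 0.39; limma adjusted p = 0.928).

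The other ncam1 probe sets gave smaller differences from CMO. For ncam1.S the arrays read 8.92, 9.27 and 9.33 in MO13_C13, 9.20, 9.44 and 9.09 in MO13 and 8.96, 8.62 and 9.06 in CMO. MO13 lay wholly above CMO, by 0.36 (-0.04 to 0.77; limma adjusted p = 0.354), while MO13_C13 overlapped CMO and differed from it by 0.29 (limma adjusted p = 0.475). The probe set that matches both copies read 7.07, 7.05 and 7.55 in MO13_C13, 6.63, 7.09 and 7.04 in MO13 and 6.76, 6.35 and 7.22 in CMO. Here the groups overlapped, with differences from CMO of 0.45 in MO13_C13 (limma adjusted p = 0.284) and 0.14 in MO13 (limma adjusted p = 0.767). Over the 9 arrays the 3 ncam1 probe sets correlated pairwise at Pearson r = 0.613, 0.652 and 0.761, as a description over arrays that share experiments.

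The SoxB1 factor sox2 was read by a pair of sox2.L probe sets that did not move together. The probe set with the suffix x_at, which on these arrays marks probes that can bind other transcripts too, gave 7.77, 7.88 and 7.69 in MO13_C13, 8.24, 8.08 and 7.81 in MO13 and 7.88, 7.53 and 7.48 in CMO. Within every experiment MO13 was above CMO, by 0.36, 0.55 and 0.33, although the groups overlapped (mean 0.41, 95% interval 0.13 to 0.69; limma adjusted p = 0.149). In MO13_C13 it lay below MO13 in every experiment, by a mean difference of -0.26 (limma adjusted p = 0.721). The other, with the plain suffix at, gave 7.22, 7.41 and 8.04 in MO13_C13, 5.67, 6.95 and 7.98 in MO13 and 6.60, 6.54 and 8.04 in CMO. Its MO13 against CMO values were -0.93, 0.41 and -0.06, and its mean difference of -0.19 has the opposite sign to the other probe set (-0.87 to 0.48; limma adjusted p = 0.808). MO13_C13 minus MO13 was 0.69 (0.01 to 1.37; limma adjusted p = 0.721), with 1.55 in experiment 1 and 0.46 and 0.06 in the others. Without the MO13 array of experiment 1, the lowest of the 9, the MO13 against CMO difference was 0.21 in place of -0.19. The pair correlated at r = -0.601 over the 9 arrays, so no direction can be given for sox2.L.

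For sox3.S, the copy of this plate-wide progenitor factor with signal above the upper quartile, the arrays read 9.74, 9.79 and 9.66 in MO13_C13, 9.69, 9.86 and 9.35 in MO13 and 9.50, 9.55 and 9.50 in CMO. MO13_C13 lay wholly above CMO, but by 0.21 only (-0.06 to 0.49; limma adjusted p = 0.44). MO13 spread around CMO, with a difference of 0.12 (-0.16 to 0.39; limma adjusted p = 0.699). The sox3.L probe set stayed between 1.61 and 2.19 on all arrays, near the lower quartile, with differences of 0.14 or less.

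The progenitor RNA-binding protein gene msi1 was among the steadiest, and the msi1.S values spanned only 0.27 over the 9 arrays. For msi1.S the arrays read 11.24, 11.35 and 11.15 in MO13_C13, 11.08, 11.33 and 11.30 in MO13 and 11.33, 11.23 and 11.12 in CMO. For msi1.L they read 10.69, 10.90 and 10.84 in MO13_C13, 10.94, 11.03 and 10.76 in MO13 and 10.92, 10.95 and 10.55 in CMO. The groups overlapped for both copies in every comparison. The msi1.S difference between MO13 and CMO was 0.01, with a 95% interval of -0.26 to 0.28, and that of msi1.L was 0.10 (-0.18 to 0.39). A change of msi1.S by more than 0.28 upwards or 0.26 downwards thus lies outside that interval.

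The proneural genes gave low signals in all groups. The neurog2.L probe set ranged from 1.32 to 1.81, neurod1.L from 1.24 to 2.07 and neurod4.L from 1.09 to 1.47 over the 9 arrays. For neurog2.S, the probe set S1_at ranged from 0.86 to 1.46 and S2_at from 2.30 to 3.91. Among these 5 probe sets, neurod4.L and neurog2.S (S1_at) were higher in all 3 MO13_C13 arrays than in all 3 MO13 arrays. For neurod4.L the values were 1.24, 1.22 and 1.47 in MO13_C13, against 1.1, 1.13 and 1.13 in MO13, a difference of 0.19 (limma adjusted p = 0.749). For neurog2.S (S1_at) they were 1.22, 1.17 and 1.17 in MO13_C13, against 0.86, 1.1 and 1.16 in MO13, a difference of 0.15 (limma adjusted p = 0.807). Both lie below the lower quartile on every array, so these are differences among the dimmest signals of the arrays. The neurod1.L differences were 0.17 for MO13_C13 against MO13, -0.24 for MO13 against CMO and -0.07 for MO13_C13 against CMO, all with overlapping groups.

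Among the genes of committed and differentiated neurons, tubb2b.S, a beta tubulin of neurons, read 10.00, 9.95 and 10.03 in MO13_C13, 9.68, 9.64 and 9.93 in MO13 and 10.01, 10.16 and 10.30 in CMO. The MO13 arrays were all below the arrays of both other groups. MO13 minus CMO was -0.41, a ratio of 0.754 (95% interval -0.65 to -0.16), with -0.33, -0.52 and -0.37 in the single experiments. This did not pass the threshold (limma adjusted p = 0.115, and 0.456 without the experiment term; 0.0689 to 0.578 over the alternatives). MO13_C13 minus MO13 was 0.24 (0.0005 to 0.49; limma adjusted p = 0.721), and MO13_C13 minus CMO was -0.16 (-0.41 to 0.08; limma adjusted p = 0.511).

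For myt1.S, the zinc finger factor that works with the proneural proteins, the arrays read 4.71, 5.09 and 5.61 in MO13_C13, 3.07, 4.75 and 5.2 in MO13 and 4.61, 5.25 and 5.9 in CMO. The groups overlapped, but MO13 was the lowest array of its experiment in all 3. MO13 minus CMO was -0.91, a ratio of 0.531 (-1.49 to -0.34; limma adjusted p = 0.13, and 0.877 without the experiment term). MO13_C13 minus MO13 was 0.80 (0.22 to 1.37; limma adjusted p = 0.721), and MO13_C13 minus CMO was -0.12 (-0.69 to 0.46; limma adjusted p = 0.877). The single experiments gave -1.54, -0.50 and -0.70 for MO13 minus CMO, so experiment 1 lay farthest from 0. Without the MO13 array of experiment 1 the difference was -0.55. For MO13_C13 minus MO13 they gave 1.64, 0.34 and 0.41, and without experiment 1 that difference was 0.38.

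For elavl3.L, an RNA-binding protein gene of newborn neurons, the arrays read 3.54, 3.27 and 4.32 in MO13_C13, 2.63, 2.28 and 5.45 in MO13 and 3.27, 3.24 and 5.38 in CMO. In each group the experiment 3 array was the highest. MO13 minus CMO was -0.51 (-1.39 to 0.37; limma adjusted p = 0.57), with -0.64 and -0.96 in experiments 1 and 2 but 0.07 in experiment 3. MO13_C13 minus MO13 was 0.26 (-0.62 to 1.14; limma adjusted p = 0.891), and its sign differed between experiment 3 (-1.13) and the others (0.91 and 0.99).

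Summed over the 17 probe sets, the experiment held 64.3% of the sum of squares and the group 17.7%, compared with 57.6% and 22.5% over all probe sets. The sum is weighted towards the probe sets with the widest range: singly, experiment held more than group in 10 of 17 and group more than experiment in 7 of 17, where group held more in 30.4% of all probe sets. In elavl3.L the experiment held 81.3% and in sox2.L (at) 69.5%. In both, the 3 arrays of experiment 3 were above the other 6: 4.32 to 5.45 against 2.28 to 3.54 for elavl3.L, and 7.98 to 8.04 against 5.67 to 7.41 for this sox2.L probe set. In neurog2.S (S2_at), where the experiment held 79.5%, experiment 3 was below the others, at 2.30 to 2.98 against 3.00 to 3.91. Among all probe sets 8.34% had experiment 3 wholly above and 7.26% wholly below. The 3 highest group shares were those of ncam1.L (74.3%), tubb2b.S (72.6%) and sox2.L (x_at, 55.8%), which are also 3 of the 4 probe sets at an unadjusted limma p under 0.05 for MO13 against CMO. Both measures come from the same array values, so this overlap is not separate evidence.

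**Figure D3:**
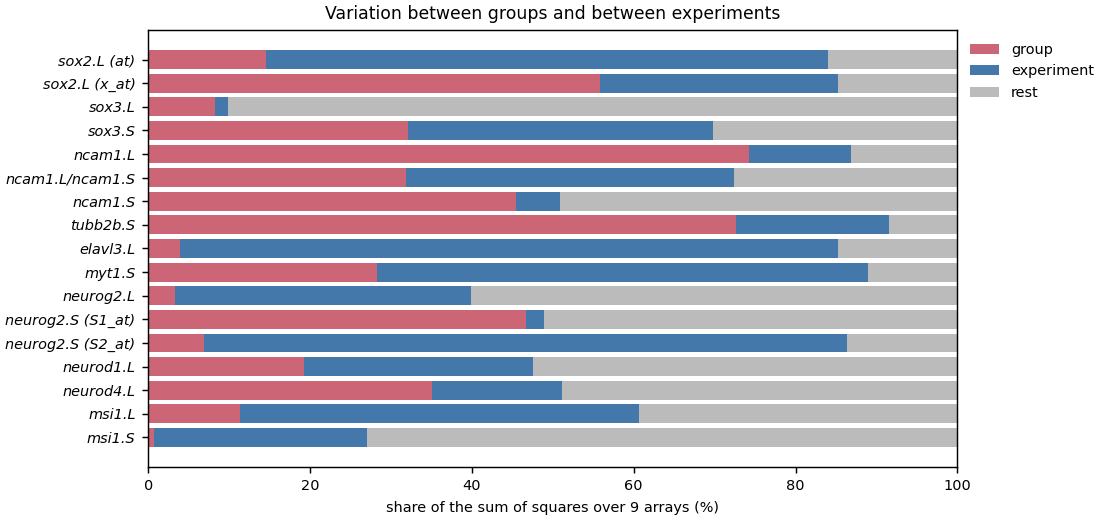
Share of the sum of squares over the 9 arrays held by group, by experiment and by the rest, in percent, for each of the 17 probe sets. Group takes 74.3% in ncam1.L and 72.6% in tubb2b.S, and experiment takes 81.3% in elavl3.L.

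A wider list of neural genes gave 1 call. Of 76 further symbols of neural progenitors, neuronal commitment and neurons, 42 were on the array, with 64 probe sets. For MO13 against CMO, 0 rose and 1 fell of 64, a share near the 1.16% called over all probe sets. For MO13_C13 against MO13 none was called (0.00646% of all), and for MO13_C13 against CMO none was called (1.76% of all). At an unadjusted limma p under 0.05 the counts were 5 higher and 5 lower of 64 for MO13 against CMO (7.56% and 8.88% of all), 1 and 1 for MO13_C13 against MO13 (3.89% and 2.83% of all), and 5 and 5 for MO13_C13 against CMO (7.83% and 8.24% of all). The medians of the 64 were -0.035, -0.03 and -0.04 in the same order.

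The gene that fell was stmn2, a microtubule regulator of growing axons, read by a probe set that matches both copies. It gave 2.56, 2.89 and 2.97 in MO13_C13, 2.38, 2.58 and 2.84 in MO13 and 3.10, 3.28 and 3.35 in CMO, so both ADAM13 morpholino groups were below CMO. In MO13 against CMO it fell by 0.64 (SE 0.0997; limma adjusted p = 0.0359), and in MO13_C13 against CMO the difference was -0.44 (limma adjusted p = 0.0849). The call for MO13 against CMO was lost without the experiment term (limma adjusted p = 0.323), with only the compared arrays, with centred arrays, with another variance model and without any single array or experiment (0.0529 to 0.379 over these alternatives). The muscle gene tnnt3.S, a troponin T, was also called lower in both comparisons with CMO, at 2.38, 2.36 and 2.52 in MO13_C13, 2.27, 2.59 and 2.74 in MO13 and 3.50, 3.24 and 3.88 in CMO. Its differences were -1.12 in MO13_C13 (limma adjusted p = 0.0172; 0.00817 to 0.17 over the alternatives) and -1.01 in MO13 (limma adjusted p = 0.0252; 0.0185 to 0.239). The epidermal factor grhl3.L was called higher in MO13_C13 than in CMO, by 0.80 (limma adjusted p = 0.0287; 0.0199 to 0.633). Each of these 3 calls was lost without the experiment term and without any one of the 3 experiments. The part of muscle, epidermal, placode, notochord or cement gland cells in the neural values was not tested.

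The wider list was then sorted into 3 roles, after its values had been seen. Among the 20 progenitor probe sets, 12 were higher and 7 lower in MO13 than in CMO, and all 5 of the list with a higher signal at an unadjusted limma p under 0.05 (7.56% of all probe sets) belonged to this role. Because the roles were assigned with the values known, the counts by role are a description only. Those 5 were zic2.L, a factor of the plate border and dorsal neural tube (0.28), and 4 probe sets of the Notch-responsive hes5 repressors. The 4 were hes5.1.L (0.72), hes5.2.L (0.48) and a pair for hes5.5.S (0.96 and 1.12). None of these was called. Their limma adjusted p values were 0.107 to 0.22. The zic2.S probe sets differed by 0.31 (S1_at, limma adjusted p = 0.472) and 0.003 (S2_at, limma adjusted p = 0.992). Each had a negative value in experiment 1 (-0.24 and -0.30). For hes5.5.S the probe set S1_x_at read 5.5, 5.17 and 5.31 in MO13_C13, 6.36, 5.32 and 4.78 in MO13 and 5.02, 3.69 and 4.38 in CMO, with MO13_C13 wholly above CMO and MO13 overlapping it. The third hes5.5.S probe set lay between 0.99 and 1.77 on all arrays, and its MO13 minus CMO difference was 0.07. For the other hes5 probe sets that difference was 0.20 (hes5.6.L), 0.00 (hes5.3.L), -0.09 (hes5.2.S) and -0.12 (hes5.10.L). The negative values came from dim probe sets, with hes5.2.S at 1.08 to 1.87 and hes5.10.L at 1.09 to 1.46 over the arrays. Both were below the lower quartile on every array, so the hes5 values give no clear common direction or lack of one. In MO13_C13 against CMO the difference was 1.07 for hes5.5.S (S1_at), 0.52 for hes5.6.L, and -0.05 for both hes5.2.S and hes5.10.L. None was called there. The hes5.2.L probe set read 1.07 to 1.97 over the arrays, near the lower quartile.

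The neuronal part of the wider list had medians just below 0 for MO13 against CMO, at -0.10 for commitment and -0.05 for neuron probe sets. Of 14 neuronal commitment probe sets 4 were higher and 10 lower in MO13 than in CMO, and of 30 neuron probe sets 10 were higher and 20 lower. The 5 of these 44 that were lower at an unadjusted limma p under 0.05 (8.88% of all probe sets) were stmn2, the intermediate filament gene prph.S (-1.59), the neuronal tubulin tubb3.L (-0.64) and the differentiation factors ebf3.L (-0.69) and ebf2.L (-0.38). In MO13_C13 against CMO, which shares the CMO arrays, these 5 differed by -0.44 (stmn2), -1.40 (prph.S), -0.74 (tubb3.L), -0.72 (ebf3.L) and -0.46 (ebf2.L). In that comparison 1 neuron probe set was higher at an unadjusted limma p under 0.05, that of dpysl3.L (x_at), by 0.63 (95% interval 0.30 to 0.95; limma adjusted p = 0.0791), with 0.97, 0.35 and 0.56 in the single experiments. The other dpysl3.L probe set differed by 0.33, with -0.04 in experiment 3 (limma adjusted p = 0.442). The dpysl3.S probe set differed by 0.21, with -0.18 in experiment 3 (limma adjusted p = 0.6). Not all neuron genes thus differed from CMO in one direction, and none was called in that comparison. For prph.S the arrays read 4.31, 3.76 and 4.13 in MO13_C13, 3.71, 3.56 and 4.35 in MO13 and 4.6, 5.79 and 6.01 in CMO, without overlap between CMO and either other group. Its adjusted limma p was 0.0691 for MO13 against CMO and 0.0845 for MO13_C13 against CMO, with 0.024 to 0.455 and 0.0352 to 0.44 over the alternatives. MO13 minus CMO was -0.40 for prph.L, with a limma adjusted p of 0.372. The tubb3.L signal was 1.70 to 3.32 over the arrays and that of ebf3.L 2.01 to 3.13, both below the median on every array. For tubb3.L the MO13 and CMO arrays overlapped. The ebf2.L signal was 1.56 to 2.29 over the arrays, near the lower quartile. For the brighter ebf2.S probe set MO13 minus CMO was -0.29, with 0.06 in experiment 3 (limma adjusted p = 0.572). Of the 30 neuron probe sets 12, and of the 14 commitment probe sets 8, were below the lower quartile on all 9 arrays.

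Between MO13_C13 and MO13 the wider list gave no call. The axon growth gene dpysl3.L read 8.68, 7.84 and 8.41 in MO13_C13, 7.87, 7.57 and 7.77 in MO13 and 7.71, 7.49 and 7.85 in CMO with its x_at probe set. MO13_C13 was above MO13 in every experiment, though the groups overlapped (0.57, limma adjusted p = 0.721), and the other dpysl3.L probe set differed by 0.39 (limma adjusted p = 0.721). The dpysl3.S probe set differed by only 0.003, with -0.17, 0.14 and 0.04 in the single experiments (limma adjusted p = 0.996). The synaptic vesicle gene syt1.L differed by 0.65 and hes5.1.L by -0.45, each with a limma adjusted p of 0.721. The syt1.L arrays read 1.37, 2.7 and 1.37 in MO13_C13 and 1.04, 1.62 and 0.82 in MO13. Its signal was below the lower quartile on every array except that of MO13_C13 in experiment 2.

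**Figure D4:**
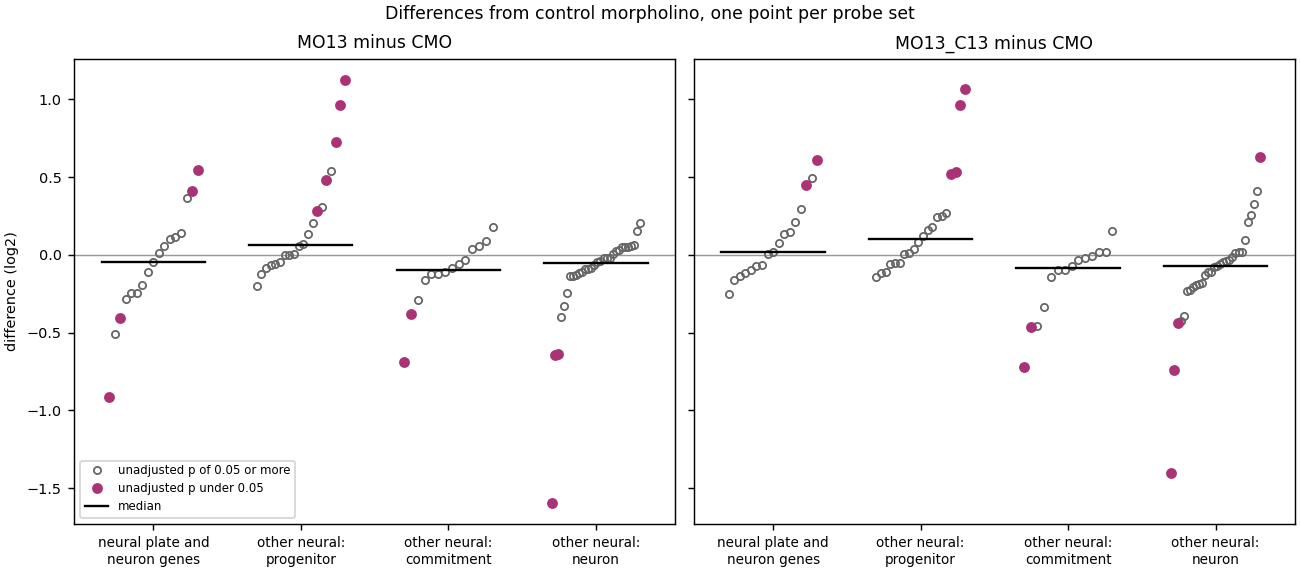
Differences from CMO in log2 signal for MO13 (left) and MO13_C13 (right), shown for the 17 neural plate and neuron probe sets and for the wider neural list by role; each point is 1 probe set, filled at an unadjusted limma p under 0.05, and the line is the median. The medians for MO13 against CMO are 0.065 for progenitor, -0.10 for neuronal commitment and -0.05 for neuron probe sets, with wide overlap between roles.

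The authors' deposited tables list several of these probe sets. The first, headed as genes significantly affected by ADAM13 loss, holds 7 of the 17: sox2.L (x_at), ncam1.L, ncam1.S, tubb2b.S, myt1.S, neurog2.S (S1_at) and msi1.L. In the authors' deposited table their average log2 changes for MO13 against CMO run from -0.91 for myt1.S to 0.54 for ncam1.L, with 0.10 for msi1.L. The second, for genes also affected by GFP-C13, holds 4 of the 17: this sox2.L probe set, tubb2b.S, myt1.S and neurog2.S (S1_at). The first of the authors' deposited tables holds 6121 probe sets, which is 39.5% of the array, and these are the 6121 whose MO13 and CMO values differ in one direction in all 3 experiments, ties allowed. The second holds 2097, or 13.5% of the array, which are those with one direction in both MO13 against CMO and MO13_C13 against MO13. Both tables are headed with p under 0.01, and 1035 probe sets had an unadjusted limma p under 0.01 for MO13 against CMO. A place in the tables thus coincides with agreement in sign between experiments, which 7 of 17 neural probe sets and 36.4% of all probe sets showed without ties.

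The probe sets whose pattern over the 9 arrays was most like that of a neural gene were searched among 5218 with 1 gene symbol and a mean above the median. For ncam1.S these were znrd2.L, tra2a.S and mrpl37.L (Pearson r = 0.941, 0.888 and 0.881). For sox2.L (x_at) they were chmp4b.L, MGC83206 and mcm4.S (0.958, 0.944 and 0.939), for sox3.S atp5f1d.L, rbm24.S and clspn.S (0.905, 0.902 and 0.897), and for msi1.S LOC503674, bora.S and nkap.S (0.952, 0.949 and 0.901). For tubb2b.S they were rplp2.L, sdhb.S and MGC80611 (0.962, 0.955 and 0.955), and for myt1.S tada3.L, cep43.L and pld6.S (0.968, 0.964 and 0.961). For elavl3.L they were phf20.S, etfdh.L and ftsj1.S (0.986, 0.969 and 0.967), in which experiment held 81.1%, 74.1% and 82.9% of the sum of squares. For the proneural probe sets they reached 0.956 with c19orf47.S for neurog2.S (S2_at), 0.883 with usp5.S for neurod1.L and 0.846 with mlf2.S for neurod4.L. These correlations describe 9 arrays that share experiments, and each was picked as one of the highest among 5218.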

How the data were processed

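Values were deposited by the authors as log2 intensities, for which the submitters' processing notes name GCRMA and Affymetrix Expression Console (versions not given in the sources used here). GC-RMA subtracts a background modelled from probe sequence, so the lowest signals depend most on that model. The log2 values in the authors' lists equal the value table per the file headers and a comparison of the values. Detection calls were not used here, and depth does not apply: 3 arrays per group limit the precision.

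All 15491 probe sets were fitted on all 9 arrays with limma 3.58.1 in R 4.3.3 (group and experiment as terms, two-sided, Benjamini-Hochberg over all probe sets, threshold 0.05). Experiment is a term because the series text pairs arrays by experiment. Deviations from group means correlated at 0.506 to 0.735 in the 9 same-experiment pairs and at most -0.059 in others. Deviations in a group sum to 0, so positive same-experiment values draw the others below 0, and their negative sign is not separate evidence. The code of the fit was run on simulated data, with independent normal noise around the experiment means. The model's assumptions hold there by construction, so this says nothing on how stable the calls are in the real arrays. By the annotation 9304 probe sets carry 1 symbol, 195 several and 5992 none, and all 17 neural ones matched RefSeq by gene ID.

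The neural probe sets, the wider list and the markers were chosen with earlier results of these data known. Named were all 17 neural probe sets, up to 6 called genes of the wider list per comparison, or its 4 smallest p values where fewer than 4 were called, and the 3 most alike probe sets of each neural gene; other genes named were chosen after their values were seen. Alternatives were the fit without experiment, only the compared arrays, dim probe sets left out, arrays centred on their medians, eBayes with trend and robust, and each array or experiment left out.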

Additional observations from a re-analysis of the deposited data

How the results depend on the processing

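The neural probe sets gave 0 calls in all 3 comparisons under all 17 alternative settings, though not all were fitted in each. With dim probe sets left out, only those with a mean at or above the median were fitted. In that setting myt1.S, elavl3.L, sox3.L and the proneural probe sets were therefore not tested. The counts over all probe sets, which the adjusted p values rest on, did move. For MO13 against CMO, 179 calls became 15 with no replicate block (experiment left out of the fit), 0 with only the compared arrays and 277 with trend and robust, and 0 to 183 with one array or experiment left out. For MO13_C13 against MO13, 1 call became 2 with trend and robust and 0 to 2 with leave-outs. For MO13_C13 against CMO, 272 calls became 22 with no replicate block and 1 to 421 with leave-outs. The median of the neural probe sets for MO13 against CMO, -0.043, was 0.12 with dim probe sets left out, 0.02 with arrays centred and -0.16 to 0.087 with leave-outs. That for MO13_C13 against MO13, 0.15, was 0.067 with dim probe sets left out and 0.09 with arrays centred. For MO13_C13 against CMO it was 0.02, and 0.21 with dim probe sets left out, which leaves fewer probe sets, and -0.025 to 0.12 with leave-outs. The cause of the other shifts was not tested.

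Of 1039 values for single probe sets under alternatives, 951 kept direction and side of the threshold, 66 turned direction, 16 lost a call (all for stmn2) and 6 gained one (all for prph.S). With arrays centred, neurog2.L turned to 0.02 for MO13 against CMO and msi1.S to -0.047 for MO13_C13 against MO13. The other turns came from leaving out 1 array or experiment, and touched differences of up to 0.26 in size (elavl3.L, MO13_C13 against MO13). In MO13 against CMO the leave-outs ran from -0.50 to 0.21 for sox2.L (at), -0.19 to 0.35 for sox3.L, -0.16 to 0.31 for the ncam1 probe set of both copies and -0.13 to 0.083 for neurog2.L. They ran from -0.41 to 0.015 for neurod1.L, -0.19 to 0.0075 for neurod4.L and -0.075 to 0.14 for msi1.S. In MO13_C13 against MO13 the leave-outs ran from -0.17 to 0.28 for sox3.L, -0.023 to 0.19 for sox3.S, -0.039 to 0.23 for ncam1.L and -0.23 to 0.069 for ncam1.S. They ran from -0.11 to 0.95 for elavl3.L, -0.15 to 0.11 for neurog2.L, -0.050 to 0.32 for neurog2.S (S2_at) and -0.093 to 0.093 for msi1.S. In MO13_C13 against CMO the leave-outs ran from -0.037 to 0.33 for sox3.L, -0.55 to 0.30 for elavl3.L, -0.38 to 0.023 for myt1.S and -0.21 to 0.11 for neurog2.L. They ran from -0.17 to 0.028 for neurog2.S (S1_at), -0.30 to 0.022 for neurog2.S (S2_at), -0.26 to 0.15 for neurod1.L and -0.030 to 0.21 for neurod4.L. They ran from -0.14 to 0.12 for msi1.L and -0.030 to 0.11 for msi1.S. Calls also changed outside the 1039 counted values. The calls of adam33.L, tnnt3.S and grhl3.L were lost under some alternatives, as given above. For tubb3.L in MO13 against CMO the lowest limma adjusted p over the alternatives was 0.0488. In MO13_C13 against CMO it was 0.0418 for hes5.2.L and 0.0419 for ebf3.L, so these gained a call in at least that setting.

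Low signals limit what can be said of neurog2.L, neurog2.S (S1_at), neurod1.L, neurod4.L and sox3.L, whose values lie below the lower quartile or near it, with no detection calls. Only 3 arrays per group were available.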
